A study of Mus musculus with 70 samples.

Results

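The comparison described here set dorsal hippocampus from mice that had resumed running (14-7-2) against sedentary mice (0-0-0), in 20 of the 70 RNA-seq libraries of the study, 10 in each group. The members are the 10 libraries labeled with the exercise parameters 14-7-2 and the 10 labeled 0-0-0 with object location memory (OLM) acquisition, and the results are given with all 20 and again without sedentary replicate 6. Mice of the 14-7-2 group, adult C57BL/6J males, had 14 days of voluntary wheel running, 7 days without a wheel and 2 days of reactivating running. Sedentary mice, of the same strain and sex, lived in standard cages throughout. Both groups were housed singly and had a 3-min subthreshold OLM acquisition session 1 h before tissue was taken, so that running was compared in trained animals alone. Each group drew 5 libraries from each of 2 harvest cohorts, separated by 24 h and each taken within a 4-h window. The question asked was which genes are up- or down-regulated in early consolidation when brief running follows a period of rest.

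Learning and neuronal firing induce immediate early genes within minutes. Their products include transcription factors such as FOS, EGR1 and NPAS4 and synaptic effectors such as ARC. The endoplasmic reticulum (ER) folds secreted and membrane proteins with a set of chaperones led by HSPA5 (BiP), and some of their genes carry a shared ER stress element. The hippocampus also holds a circadian clock, in which ARNTL (BMAL1) and CLOCK drive the Per, Cry and Ciart genes through E-boxes and the products of those genes act back on ARNTL and CLOCK. Voluntary running is known for raising growth factors, neurogenesis and metabolic enzymes in this tissue.

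The deposited values are FPKM, fragments per kilobase of transcript scaled to the size of the library, for 24346 genes listed by symbol without coordinates. Absolute depth is unknown, as the file holds no counts. Relative depth, read from the step size of genes under 0.1 FPKM with sedentary replicate 0 set to 1, was 0.637 to 1 in sedentary libraries (median 0.753) and 0.611 to 1.09 in 14-7-2 libraries (median 0.853). Of the 20 libraries, 3 stood apart. In sedentary replicate 6 the summed FPKM of striatum markers was 549, against 64.3 to 96.8 in the other 9, and that of dentate gyrus granule cell markers was 97.3, against 169 to 385. The markers of this library thus go in part against the labeled dorsal hippocampus. In 14-7-2 replicate 9 the choroid plexus markers summed to 3595 FPKM against a group median of 178, and in 14-7-2 replicate 3 the thalamus markers summed to 179 against a median of 59.1. The marker lists of granule cells and of CA1 and CA3 pyramidal cells had all of their genes detected in at least 1 of the 20 libraries.

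The test was run on log2(FPKM + 0.1) for 12994 genes, those that averaged 1 FPKM or more across the 70 libraries of the study. Of these, 269 were higher in 14-7-2 and 302 were lower at an unadjusted p under 0.05, which is 2.07% and 2.32% of genes. Without sedentary replicate 6 the counts were 227 and 238, or 1.75% and 1.83%. A test at this threshold calls 649.7 of 12994 genes on average when none differs, and none of the 571 genes called passed Benjamini-Hochberg adjustment (limma, smallest adjusted p = 0.847, and 0.659 among the 465 called without replicate 6). In both fits 170 genes were called higher and 185 lower. For none of the 12994 genes were the 10 values of 14-7-2 separated completely from the 10 sedentary values. The median log2 fold change of all genes was -0.000421, so that the values below are not displaced by a shift of the whole table. Leaving out 1 other library moved a count by over 1.5 times for 4 libraries, to 174 higher genes without 14-7-2 replicate 1, to 428 and 452 higher genes without sedentary replicates 2 and 9, and to 182 lower genes without sedentary replicate 0. Each list of genes is read against these percentages, and the genes named below were called in both fits unless stated. Counts of libraries beyond the median or range of the other group restate the values by which most of these genes were picked. They describe the overlap and are not separate evidence, and their share over all genes is not given.

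**Figure D1:**
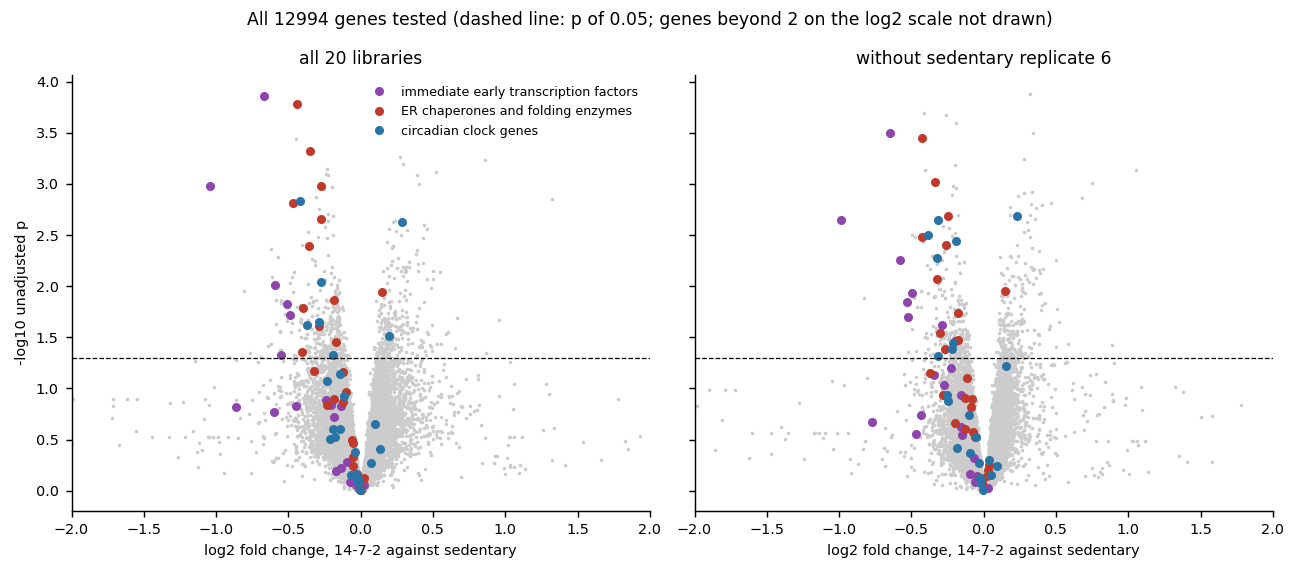
Unadjusted p (vertical, -log10 scale) against log2 fold change of 14-7-2 against sedentary (horizontal) for the 12994 genes tested, with all 20 libraries (left) and without sedentary replicate 6 (right). Of the colored lists, the immediate early transcription factors (6 and 8 lower) and the ER chaperones (11 and 10 lower) lie mostly on the left. Clock genes do so too, with 18 of 23 below 0 in each fit, but have called genes on both sides of 0.

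Several immediate early transcription factors, measured 1 h after the training session, were lower in mice that had resumed running. The list of immediate early transcription factors holds 22 genes tested, with other nuclear regulators and the kinase gene Sik1 among them. Of these 22 genes, 6 fell and 0 rose with all 20 libraries, and 8 fell without replicate 6, against 2.32% and 1.83% of all genes. The median log2 fold change of the list was -0.19 (-0.28 without replicate 6), with 20 of 22 below 0. Egr1, a zinc finger transcription factor, had the smallest p of the comparison. Its lowest, median and highest values were 45.9, 69.4 and 99.7 FPKM in sedentary libraries and 33.6, 42.4 and 54.2 FPKM in 14-7-2 libraries (log2 fold change -0.67, standard error 0.144, p = 0.000139, and -0.65 with p = 0.000318 without replicate 6). All 10 of the 14-7-2 libraries were below the sedentary median, 6 of them below every sedentary library, and sedentary replicates 0, 7 and 8 were the highest.

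Fos, the partner of JUN proteins in AP-1, fell further. Its lowest, median and highest levels were 3.22, 6.1 and 16.3 FPKM in sedentary mice and 2.22, 3.32 and 5.68 FPKM in 14-7-2 mice (log2 fold change -1.04, standard error 0.274, p = 0.00105, and -0.99 with p = 0.00227 without replicate 6). The groups overlapped, since sedentary replicates 1, 2 and 3 were at 3.78, 3.22 and 3.86 FPKM, while replicates 8, 0 and 7 reached 16.3, 13.4 and 11.3 FPKM. The spread of the sedentary group was thus wider than that of 14-7-2, where 4 libraries lay below the lowest sedentary value. Fosb fell by 0.59 on the log2 scale (p = 0.00972), the orphan nuclear receptor gene Nr4a1 by 0.51 (p = 0.015) and Npas4, which is induced by calcium entry in neurons, by 0.49 (p = 0.019). All 10 libraries of 14-7-2 were below the sedentary median for Nr4a1 and for Npas4, and 9 were for Fosb. Sik1, a CREB-regulated kinase gene in the list, was called with all 20 libraries only (log2 fold change -0.55, p = 0.0474, and -0.35 with p = 0.0745 without replicate 6, which held 8.9 FPKM against 1.29 to 3.56 in the other sedentary libraries).

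Egr3, Nr4a2 and Klf10 passed only without replicate 6, with log2 fold changes of -0.29 (p = 0.024), -0.50 (p = 0.0117) and -0.20 (p = 0.034). Junb had a larger estimate than most (-0.86) but did not pass (p = 0.153), and its level ran from 1.44 to 29.4 FPKM within 14-7-2 and from 2.56 to 38.8 within sedentary. Jun, Jund, Btg2 and Crem had log2 fold changes between -0.07 and 0.02, with p of 0.829 or more.

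Among 30 effector and late activity-induced genes, 3 fell with all 20 libraries and 5 without replicate 6, and none rose in either fit (list median -0.09 and -0.09). Arc, which regulates AMPA receptor endocytosis at synapses, had lowest, median and highest levels of 20.9, 46.9 and 109 FPKM in sedentary and 13.2, 25.7 and 38.4 FPKM in 14-7-2 libraries (log2 fold change -0.81, standard error 0.289, p = 0.011, and -0.83 with p = 0.0131 without replicate 6). Its 6 highest libraries were all sedentary, led by replicates 8, 0 and 7, and the lower sedentary libraries lay among those of 14-7-2. Spry4, a feedback inhibitor of receptor tyrosine kinase signaling, fell by 0.32 on the log2 scale (p = 0.0057), and Dusp1, a MAP kinase phosphatase, by 0.32 (p = 0.0446, and 0.0744 without replicate 6). Homer1, Spry2 and Dusp6 were called without replicate 6 only, with log2 fold changes of -0.29, -0.20 and -0.24. Homer1, a postsynaptic scaffold gene, was 17.2 FPKM in replicate 6, against 25.3 to 49.2 in the other sedentary libraries and 26.8 to 34.5 in 14-7-2.

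Because sedentary replicates 0 and 8 were among the highest in Egr1, Fos and Arc, the comparison was also run without these 2 libraries, an alternative chosen after the values were seen. Egr1 and Fos were still called (log2 fold changes -0.55 and -0.77, p = 0.000729 and 0.00443) and Arc was not (-0.53, p = 0.0538). The number of genes in the immediate early list that fell dropped from 6 to 3, and the counts over all genes to 164 higher and 158 lower (1.22%).

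**Figure D2:**
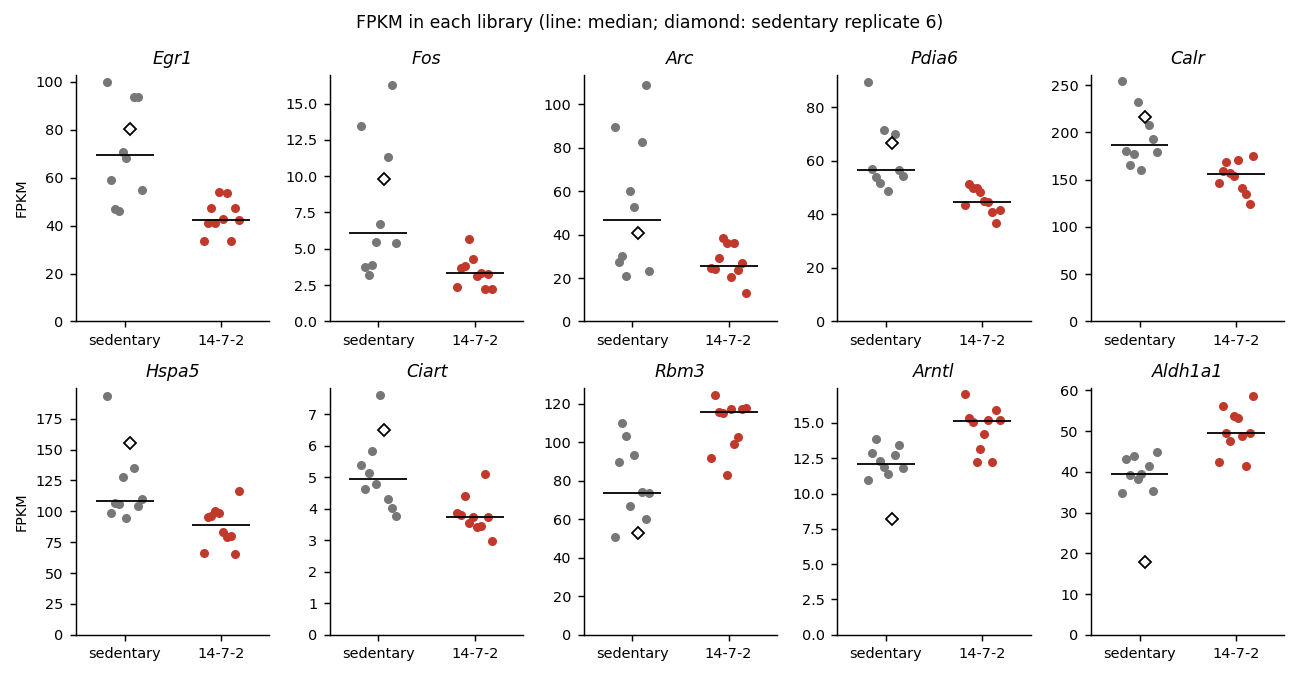
FPKM (vertical axes, linear and starting at 0) of 10 genes in the 10 sedentary and 10 14-7-2 libraries, with the group median as a line and sedentary replicate 6 as a diamond. The sedentary points spread upward for Egr1, Fos and Arc, the 14-7-2 points sit low and close together for the ER genes Pdia6 and Calr, and for Rbm3, Arntl and Aldh1a1 the 14-7-2 medians are above the sedentary medians, with the groups overlapping in each panel.

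ER chaperones and folding enzymes formed the most numerous group of lower genes. Of 27 tested, 11 fell and 1 rose, against 2.32% and 2.07% of all genes, and 10 fell and 1 rose without replicate 6. The median log2 fold change of the list was -0.17 (-0.13 without replicate 6), and 25 of 27 members were below 0. Like the other lists, it was drawn up with the leading genes of this comparison already known, and its direction is not independent evidence. The promoters of 4 of them are shown, since they share the ER stress element (CCAAT, any 9 bases, CCACG), which is in capitals. They are RefSeq windows of 250 bases before and 50 after the start site, 5′ to 3′ on the gene's own strand, in GRCm38.p6. Pdia6 lies on the plus strand of chr12:17266339-17266638, Hspa5 on the plus strand of chr2:34771840-34772139, Calr on the minus strand of chr8:84846882-84847181 and Hsp90b1 on the minus strand of chr10:86705395-86705694.
Pdia6: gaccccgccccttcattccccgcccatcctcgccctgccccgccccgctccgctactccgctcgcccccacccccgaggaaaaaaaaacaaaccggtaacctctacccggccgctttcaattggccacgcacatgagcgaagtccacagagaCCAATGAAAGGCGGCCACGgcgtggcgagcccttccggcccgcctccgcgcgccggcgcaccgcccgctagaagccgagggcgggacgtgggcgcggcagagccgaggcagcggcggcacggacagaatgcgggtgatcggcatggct
Hspa5: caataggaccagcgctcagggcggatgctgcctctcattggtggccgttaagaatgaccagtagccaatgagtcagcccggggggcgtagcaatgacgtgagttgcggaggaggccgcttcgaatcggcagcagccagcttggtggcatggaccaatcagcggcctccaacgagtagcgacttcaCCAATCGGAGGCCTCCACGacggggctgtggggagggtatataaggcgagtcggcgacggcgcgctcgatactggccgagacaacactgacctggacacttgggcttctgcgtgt
Calr: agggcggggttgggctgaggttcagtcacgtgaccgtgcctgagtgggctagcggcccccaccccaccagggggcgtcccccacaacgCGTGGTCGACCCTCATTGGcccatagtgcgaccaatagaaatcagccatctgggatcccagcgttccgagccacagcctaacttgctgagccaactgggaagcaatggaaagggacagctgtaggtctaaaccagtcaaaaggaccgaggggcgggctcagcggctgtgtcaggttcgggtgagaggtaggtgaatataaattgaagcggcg
Hsp90b1: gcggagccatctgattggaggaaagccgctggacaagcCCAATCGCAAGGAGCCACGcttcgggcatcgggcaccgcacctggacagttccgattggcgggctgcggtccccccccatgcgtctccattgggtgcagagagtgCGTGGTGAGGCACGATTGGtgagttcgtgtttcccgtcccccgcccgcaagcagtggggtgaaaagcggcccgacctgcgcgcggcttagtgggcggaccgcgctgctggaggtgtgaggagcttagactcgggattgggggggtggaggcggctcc
The element was searched on both strands and found in 39 of 32851 promoter windows, 0.119%. Within the list, 7 of 20 genes that have a window held it (Calr, Canx, Creld2, Dnajc3, Hsp90b1, Hspa5 and Pdia6), and 5 of these 7 were among the 9 with a window that fell. A match is a description of the letters in this window.

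Pdia6, a protein disulfide isomerase, had lowest, median and highest levels of 48.9, 56.8 and 89.7 FPKM in sedentary libraries and 36.9, 44.8 and 51.4 FPKM in 14-7-2 libraries (log2 fold change -0.44, standard error 0.0954, p = 0.000166, and -0.42 with p = 0.000355 without replicate 6). Of the 10 sedentary libraries 9 were above every 14-7-2 library. Hspa5, the ER-resident HSP70 that senses unfolded proteins, measured 94.7, 108 and 194 FPKM in sedentary and 65.7, 89 and 117 FPKM in 14-7-2 mice (log2 fold change -0.47, standard error 0.129, p = 0.00155, and -0.43 with p = 0.00331 without replicate 6). Sedentary replicate 0 was the highest, and 14-7-2 replicate 9 lay above the sedentary median. Calr, the calcium-binding lectin chaperone, was 160, 187 and 255 FPKM in sedentary and 124, 156 and 175 FPKM in 14-7-2 mice (log2 fold change -0.35, standard error 0.085, p = 0.000473, and -0.34 with p = 0.00095 without replicate 6). All 10 libraries of 14-7-2 were below the sedentary median of Calr, 7 of them below the lowest sedentary library.

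Hsp90b1, the ER form of HSP90, was 104, 124 and 160 FPKM in sedentary and 93.2, 104 and 142 FPKM in 14-7-2 libraries (log2 fold change -0.27, standard error 0.0786, p = 0.00222, and -0.26 with p = 0.00399 without replicate 6). Its 14-7-2 values lay between 93.2 and 113 FPKM in 9 libraries, and replicate 9 was at 142. Hyou1, a nucleotide exchange factor of HSPA5, fell by 0.28 on the log2 scale (p = 0.00105), the isomerase gene Pdia4 by 0.36 (p = 0.00407) and the HSPA5 cochaperone gene Dnajb11 by 0.18 (p = 0.0136). The others that fell were Creld2, Manf, Pdia3 and Sdf2l1, with log2 fold changes between -0.40 and -0.17, and Sdf2l1 did not pass without replicate 6 (p = 0.0712). Dnajc10, a reductase that acts in ER-associated degradation, was the member that rose (log2 fold change 0.14, p = 0.0115), and all 10 of its 14-7-2 values were above the sedentary median. Canx, P4hb, Ppib, Erp44 and the Ero1 oxidase genes did not pass, with log2 fold changes between -0.12 and 0.

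The wider ER gene sets moved less. Of 26 genes of the unfolded protein response and ER-associated degradation, 4 fell (3 without replicate 6) and none rose, and the list median was 0.00087. The genes that fell were Xbp1 (log2 fold change -0.28, p = 0.0109) and Atf4 (log2 fold change -0.20, p = 0.0231), transcription factors of that response, Chac1 (log2 fold change -0.41, p = 0.0228), a target of ATF4, and Herpud1 (log2 fold change -0.19, p = 0.0359), of ER-associated degradation, which was not called without replicate 6 (p = 0.0714). The sensor genes Eif2ak3 and Ern1 had log2 fold changes of 0.02 and 0.03, with p of 0.625 and 0.766. Among 40 genes of the translocon and secretory pathway 2 fell, the oligosaccharyltransferase subunit genes Rpn1 (log2 fold change -0.20, p = 0.00647) and Rpn2 (log2 fold change -0.11, p = 0.0478), of which Rpn1 was called without replicate 6. The median of this list was 0.00866.

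Among 23 cytosolic and mitochondrial heat shock genes, which here include the cold-inducible RNA-binding protein genes, 2 rose and 6 fell (2 and 3 without replicate 6). Both that rose were the cold-inducible genes. Rbm3, induced by mild cooling, had lowest, median and highest levels of 50.5, 73.7 and 110 FPKM in sedentary and 82.8, 116 and 124 FPKM in 14-7-2 libraries (log2 fold change 0.52, standard error 0.133, p = 0.000772, and 0.47 with p = 0.00155 without replicate 6). All 10 libraries of 14-7-2 were above the sedentary median, and sedentary replicates 0, 6, 8 and 4 were the lowest of the 20, among them 2 of the 3 highest in Egr1. Cirbp, the other one, was 28.1, 36.6 and 47.7 FPKM in sedentary and 37.8, 42.6 and 64 FPKM in 14-7-2 mice (log2 fold change 0.31, standard error 0.104, p = 0.00712, and 0.35 with p = 0.00219 without replicate 6). All 10 of its 14-7-2 values lay above the sedentary median and 4 above every sedentary library. The heat shock genes that fell were Stip1 (-0.24), Fkbp4 (-0.26), Hspa8 (-0.18), Hsf1 (-0.21), Dnajb1 (-0.26) and Hspb1 (-0.64, log2 fold changes, p = 0.0137 to 0.0385), and of these Stip1, Fkbp4 and Hspa8 were called without replicate 6. Hspa8, the constitutive HSP70, had the highest level per length of them at 1128 ± 136 FPKM in sedentary and 990 ± 80.7 in 14-7-2 mice (mean ± SD, n = 10).

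Of 23 circadian clock genes tested, 2 rose and 5 fell (1 and 7 without replicate 6, list median -0.12 and -0.09), and 18 of 23 were below 0 in each fit. Arntl, the activator, had lowest, median and highest levels of 8.22, 12.1 and 13.9 FPKM in sedentary and 12.2, 15.1 and 17 FPKM in 14-7-2 libraries (log2 fold change 0.29, standard error 0.083, p = 0.00235, and 0.23 with p = 0.00207 without replicate 6). All 10 of the 14-7-2 libraries were above the sedentary median, 7 of them above every sedentary library. Ciart, a repressor of ARNTL and CLOCK, measured 3.78, 4.96 and 7.6 FPKM in sedentary and 2.97, 3.74 and 5.11 FPKM in 14-7-2 mice (log2 fold change -0.42, standard error 0.115, p = 0.00148, and -0.38 with p = 0.00314 without replicate 6). Of the 14-7-2 libraries, replicate 7, at 5.11 FPKM, alone lay above the sedentary median. The repressor genes Per2 (log2 fold change -0.28, p = 0.00914), Cry1 (log2 fold change -0.29, p = 0.0226) and Per1 (log2 fold change -0.37, p = 0.0237) also fell, as did Nr1d2 (log2 fold change -0.19, p = 0.0472). Usp2, a clock-controlled ubiquitin protease gene, rose with all 20 libraries (log2 fold change 0.20, p = 0.0306) and did not pass without replicate 6 (p = 0.061). Tef and Bhlhe40 fell only without replicate 6 (-0.19 and -0.32, p = 0.0036 and 0.00532). Clock, Cry2, Nr1d1 and Dbp did not pass, with p of 0.252 or more.

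The promoters of Ciart and Fos are shown as examples from the clock and immediate early lists. The Ciart window, on the minus strand of chr3:95882179-95882478, held 3 E-boxes (CACGTG, a palindrome, in capitals), and the Fos window, on the plus strand of chr12:85473640-85473939, held 2 copies of the core TGACG of the cyclic AMP response element (searched on both strands, in capitals).
Ciart: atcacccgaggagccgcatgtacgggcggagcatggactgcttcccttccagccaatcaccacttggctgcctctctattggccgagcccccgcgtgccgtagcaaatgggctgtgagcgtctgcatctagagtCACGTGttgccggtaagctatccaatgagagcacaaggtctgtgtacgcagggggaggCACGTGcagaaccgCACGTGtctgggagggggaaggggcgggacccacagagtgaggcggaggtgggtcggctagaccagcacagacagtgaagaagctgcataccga
Fos: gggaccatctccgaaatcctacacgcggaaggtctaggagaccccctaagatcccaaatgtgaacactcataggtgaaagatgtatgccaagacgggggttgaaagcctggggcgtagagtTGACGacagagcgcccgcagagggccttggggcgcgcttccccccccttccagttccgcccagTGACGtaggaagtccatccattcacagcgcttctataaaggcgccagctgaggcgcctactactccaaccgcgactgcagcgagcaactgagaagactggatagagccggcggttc
The E-box was in 7.15% of the 32851 windows and in 5 of the 19 clock genes that have one (Bhlhe41, Ciart, Cry1, Per1 and Tef), 3 of them among the 4 with a window that fell. The core TGACG was in 20.8% of all windows and in 12 of 16 immediate early transcription factor genes, and the full element, TGACG followed by TCA, which contains it, was in 1.79% and in 1 of 16 (Btg2). The core of the serum response element (CC, then 6 bases of A or T, then GG) was in 1.63% of windows and in 1 of the same 16 (Srf). These 16 are the genes with a window among the 22 tested, and bases beyond the windows were not searched for any motif. The sterol regulatory motif (TCAC, any base, CCAC) was in 1.24% and in 1 of 23 cholesterol genes (Hmgcs1).

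**Figure D3:**
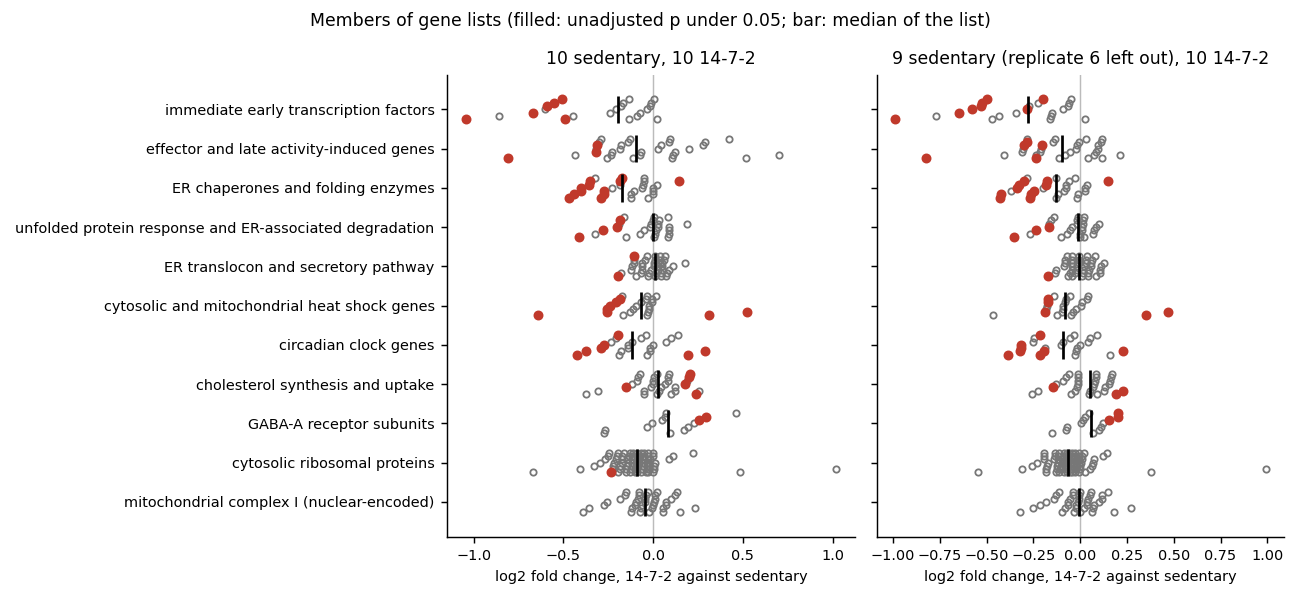
Log2 fold change of 14-7-2 against sedentary (horizontal) for the members of 11 gene lists (rows), with all 20 libraries (left) and without sedentary replicate 6 (right). Filled points are genes called at an unadjusted p under 0.05 and bars are list medians, and filled points gather below 0 for the immediate early transcription factors and ER chaperones, lie on both sides for heat shock and clock genes, and number 1 and 0 of 79 ribosomal protein genes.

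Outside these lists, the genes of smallest p that rose in both fits were mostly of modest level. Olfm4, which codes for a secreted olfactomedin glycoprotein, had lowest, median and highest levels of 0.975, 1.89 and 3.75 FPKM in sedentary and 2.42, 4.01 and 5.53 FPKM in 14-7-2 libraries (log2 fold change 0.86, standard error 0.211, p = 0.000589, and 0.75 with p = 0.000976 without replicate 6). All 10 were above the sedentary median, and 7 sedentary libraries were below the lowest 14-7-2 library. Mylk3, a myosin light chain kinase gene, measured 0.0993, 1.08 and 2.23 FPKM in sedentary and 1.08, 2.81 and 4.75 FPKM in 14-7-2 mice (log2 fold change 1.32, standard error 0.359, p = 0.00141, and 1.05 with p = 0.000726 without replicate 6). Of the 14-7-2 libraries 9 were above the sedentary median and 7 above every sedentary library, and replicate 6 was the lowest. Aldh1a1, a retinaldehyde dehydrogenase gene, was 17.9, 39.4 and 44.9 FPKM in sedentary and 41.5, 49.6 and 58.6 FPKM in 14-7-2 mice (log2 fold change 0.43, standard error 0.126, p = 0.00251, and 0.32 with p = 0.000133 without replicate 6). Its sedentary minimum was replicate 6, and without that library it had the smallest p of all genes, with 8 of 10 14-7-2 libraries above every sedentary one.

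Paox, a polyamine oxidase gene, had the smallest p among genes that rose with all 20 libraries, at 2.44, 2.93 and 3.2 FPKM in sedentary and 3.06, 3.31 and 3.91 FPKM in 14-7-2 mice (log2 fold change 0.27, standard error 0.0659, p = 0.000543, and 0.28 with p = 0.000568 without replicate 6). Here 7 of the 14-7-2 libraries were above the highest sedentary library. Armcx5 (log2 fold change 0.29, p = 0.00064), Necab3 (log2 fold change 0.39, p = 0.000816), Gm13375 (log2 fold change 0.40, p = 0.00101), Sh3yl1 (log2 fold change 0.22, p = 0.00238) and Ptprr (log2 fold change 0.20, p = 0.00275) followed. NECAB3 is a neuronal calcium-binding protein and PTPRR a tyrosine phosphatase that acts on MAP kinases.

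The lower genes of smallest p outside the lists were Rhbdl3, Bcor, Imp4, 2810459M11Rik, Snhg12, Rftn2 and Slc8b1. Rhbdl3, a rhomboid family gene, was 5.5, 7.9 and 10.4 FPKM in sedentary and 4.09, 5.88 and 7.07 FPKM in 14-7-2 libraries (log2 fold change -0.45, standard error 0.106, p = 0.000367, and -0.41 with p = 0.000734 without replicate 6), and 8 sedentary libraries lay above the highest 14-7-2 library. Bcor, a corepressor of BCL6, fell by 0.23 on the log2 scale (p = 0.000715), the ribosome biogenesis gene Imp4 by 0.24 (p = 0.000793) and Snhg12, a host gene of small nucleolar RNAs, by 0.20 (p = 0.00108). For 2810459M11Rik, Rftn2, a lipid raft protein gene, and Slc8b1, the mitochondrial sodium-calcium exchanger gene, the log2 fold changes were -0.23, -0.25 and -0.31 (p = 0.00082, 0.00113 and 0.00134).

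In the TGF-β family, Acvr1c, which codes for the type 1 receptor ALK7, was the gene that rose among 12 receptor genes tested. Its lowest, median and highest levels were 1.3, 3.76 and 4.64 FPKM in sedentary and 3.9, 4.88 and 5.9 FPKM in 14-7-2 libraries (log2 fold change 0.55, standard error 0.184, p = 0.00735, and 0.41 with p = 0.00687 without replicate 6). All 10 were above the sedentary median, 5 of them above every sedentary library, and sedentary replicates 6, 4 and 9 were the lowest. The list median over the receptors was 0.0133, which is near that of all genes. Of 31 ligands, inhibitors and Smads 1 rose and 2 fell, and without replicate 6 the counts were 2 and 1. Bambi, a decoy receptor, rose (log2 fold change 0.38, p = 0.0226), Inhbb, the activin βB subunit gene, fell (log2 fold change -0.49, p = 0.00931), and Bmp4 fell with all 20 libraries (log2 fold change -0.28, p = 0.0438) but not without replicate 6 (p = 0.0789). Fstl1 was called higher only without it (0.13, p = 0.0442).

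Bdnf, the neurotrophin most often linked to running, did not pass in limma on log2 values. The study, by its own regularized t-test (Cyber-T) at an uncorrected p, lists Bdnf among the genes up-regulated in 14-7-2. Here Bdnf measured 1.18, 20.7 and 22.9 FPKM in sedentary and 19.6, 21.1 and 25.7 FPKM in 14-7-2 libraries (log2 fold change 0.52, standard error 0.38, p = 0.191, and 0.12 with p = 0.156 without replicate 6). The lowest of the 20 values was that of replicate 6, and the standard error was 0.0801 without it. Among 9 neurotrophin and receptor genes none was called with all 20 libraries (list median 0.00599) and 1 was called lower without replicate 6 (list median -0.05, 7 of 9 below 0). Of 30 exercise-linked growth and metabolic genes, 1 rose, the catalase gene Cat (log2 fold change 0.10, p = 0.046), which did not pass without replicate 6 (p = 0.0576). Slc16a1, the lactate transporter MCT1, was called lower only without it (-0.15, p = 0.0493).

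Among 14 GABA-A receptor subunit genes, 2 rose with all 20 libraries and 3 without replicate 6, and none fell. Among them were Gabra4, whose product lies mostly outside synapses (log2 fold change 0.29, p = 0.0235), and, without replicate 6, Gabra5 (0.20, p = 0.0324). Of 30 glutamate receptor genes, 3 fell and none rose. Grik3, a kainate receptor subunit gene, was 3.81, 7.53 and 18.7 FPKM in sedentary and 3.96, 4.5 and 5.8 FPKM in 14-7-2 libraries (log2 fold change -0.62, standard error 0.194, p = 0.00432, and -0.48 with p = 0.00332 without replicate 6). The sedentary maximum was replicate 6, and 7 sedentary libraries lay above the highest 14-7-2 library. Grm4 (log2 fold change -0.76, p = 0.0454) and Grm3 (log2 fold change -0.17, p = 0.0475) were not called without that library (p = 0.0923 and 0.0808).

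In 31 genes of synaptic vesicle release none was called in either fit, the smallest p being that of Rab3b (log2 fold change -0.31, p = 0.0521) and Syt4 (-0.17, p = 0.057). Of 30 potassium channel genes 1 rose, Kcna4 (0.26, p = 0.0327), and 2 fell, Kcnf1 (-0.28, p = 0.0365) and Kcng1 (-0.31, p = 0.0491), and only Kcng1 was called without replicate 6. Of 37 CREB family and histone acetylation genes, the deacetylase gene Hdac8 fell (log2 fold change -0.19, p = 0.00317), with all 10 libraries of 14-7-2 below the sedentary median. Hdac9 rose with all 20 libraries (log2 fold change 0.17, p = 0.0491) and not without replicate 6 (p = 0.0905).

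Of 30 genes of cholesterol synthesis and uptake, 4 rose and 1 fell with all 20 libraries, and 2 and 1 without replicate 6 (list median 0.03 and 0.05). Nsdhl, a sterol dehydrogenase of the late pathway, led them at 8.98, 10.3 and 13.2 FPKM in sedentary and 10.6, 12.5 and 15.4 FPKM in 14-7-2 libraries (log2 fold change 0.24, standard error 0.0687, p = 0.00231, and 0.23 with p = 0.00396 without replicate 6). All 10 of its 14-7-2 values were above the sedentary median, and its sedentary maximum was replicate 9. Msmo1 (log2 fold change 0.20, p = 0.0293), Hmgcs1 (log2 fold change 0.21, p = 0.042) and Idi1 (log2 fold change 0.18, p = 0.0426) rose, of which Msmo1 was called without replicate 6, and the isomerase gene Ebp fell (log2 fold change -0.15, p = 0.0166). Sgk1 was the gene called among 22 glucocorticoid receptor and responsive genes (log2 fold change 0.39, standard error 0.121, p = 0.00441, and 0.38 with p = 0.00692 without replicate 6), with 9 of 10 libraries of 14-7-2 above the sedentary median and replicates 8 and 4 the highest at 85.6 and 77 FPKM.

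Lists of energy and protein turnover held few calls. None was found among 37 genes of complex I, 40 of complexes II to V and 21 of glycolysis in either fit, where limma's smallest p were those of Ndufs1 (log2 fold change 0.10, p = 0.095), Uqcrc2 (0.09, p = 0.171) and Ldhb (-0.17, p = 0.124). The medians of these lists were -0.05, -0.03 and -0.04. Of 79 ribosomal protein genes 69 had a log2 fold change below 0, with a list median of -0.09 (-0.07 without replicate 6), and Rps12 alone was called (log2 fold change -0.24, p = 0.0477). Psmd11 was the call among 31 proteasome genes (log2 fold change 0.12, p = 0.0416), and neither it nor Rps12 passed without replicate 6. Among 18 genes of adult neurogenesis, Nes, the neural stem cell filament gene, fell (log2 fold change -0.21, p = 0.0209). Without replicate 6, Igfbpl1 (0.68, p = 0.00139) and the immature neuron gene Dcx (0.31, p = 0.0394) were called higher, while with it they were at 0.41 and 0.27 (p = 0.206 and 0.0762).

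Markers of cell types were measured beside these genes, as in bulk tissue fewer cells of a type and less RNA per cell cannot be told apart. None of the 19 choroid plexus markers tested was called, although all 19 had higher means in 14-7-2 on the log2 scale (list median 0.66), and their summed level was 77.8 to 526 FPKM in sedentary and 93.4 to 3595 in 14-7-2 libraries, the maximum being replicate 9. Of 17 oligodendrocyte and myelin markers 2 fell with all 20 libraries, Cryab (log2 fold change -0.56, p = 0.0273) and Trf (log2 fold change -0.36, p = 0.049), and none without replicate 6. All 17 were below 0 in both fits (list median -0.26 and -0.15). The summed level of replicate 6, 8342 FPKM, compares with 2067 to 4590 in the other sedentary libraries and 1775 to 4135 in 14-7-2. Of 16 inhibitory neuron markers 3 fell with all 20 libraries (among them Dlx6os1, log2 fold change -0.28, p = 0.00176, and Lhx6, log2 fold change -0.18, p = 0.0378) and 3 without replicate 6, which were Dlx6os1, Gad1 and Vip. Their summed level was 968 to 2062 FPKM in the other sedentary libraries and 933 to 1550 in 14-7-2.

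Among 14 microglia markers 2 fell in both fits, Csf1r (log2 fold change -0.14, p = 0.024) and Laptm5 (log2 fold change -0.17, p = 0.0496). The astrocyte transporter gene Slc1a3 fell (log2 fold change -0.15, p = 0.0114) and the filament gene Gfap rose with all 20 libraries (log2 fold change 0.18, p = 0.0486) but not without replicate 6 (p = 0.0887). Gpr17, of committed oligodendrocyte precursors, fell with all 20 libraries (log2 fold change -0.27, p = 0.0264) and had p = 0.0521 without replicate 6. Acta2, a smooth muscle gene, was called lower only without it (-0.40, p = 0.0285). Markers of granule cells, CA1, CA3 and CA2 pyramidal cells, neocortex, thalamus, striatum, endothelium, meninges and motile cilia gave no call in either fit. Granule cell markers had a list median of 0.30 with all 20 libraries and 0.10 without replicate 6. The part of these cell types in the results above was not tested. Without the 3 libraries that stood apart, sedentary replicate 6 and 14-7-2 replicates 3 and 9, a choice made after seeing the data, 222 of 12994 genes (1.71%) were called lower, among them 9 genes of the immediate early list and 12 ER chaperones.

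The groups were then compared within each harvest cohort. In cohort 1, 5 libraries against 5, 141 genes were higher (1.09%) and 105 lower (0.808%). In cohort 2 without replicate 6, 5 against 4, 225 were higher (1.73%) and 256 lower (1.97%). Of the 27 ER chaperones, 6 fell in cohort 1 and 6 in cohort 2, with list medians of -0.11 and -0.15. Immediate early transcription factors gave 1 lower gene in cohort 1 and 7 in cohort 2 (list medians -0.20 and -0.44). Clock genes gave 5 lower and 1 higher in cohort 1, and 0 lower and 2 higher in cohort 2. Called in both cohorts in the same direction were 20 genes, among them Egr1, Pdia6, Calr and Hspa5, which were lower, and Arntl, Cirbp, Paox and Aldh1a1, which were higher, and 3 genes were called in opposite directions. Granule cell markers had a list median of -0.19 in cohort 1 (14 of 14 below 0) and 0.35 in cohort 2 without replicate 6 (14 of 14 above 0). Myelin markers had list medians of 0.07 (4 of 17 below 0) and -0.37 (17 of 17 below 0). Their part in the values of the cohorts was not tested.

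Without replicate 6 the interaction of group and cohort was called for 4 of 22 genes of the immediate early list, Fos, Fosb, Nr4a3 and Klf10, and for none of 27 ER chaperones (limma, unadjusted p under 0.05). For Fos the log2 fold change was -0.40 (standard error 0.366) in cohort 1 and -1.66 (standard error 0.309) in cohort 2 without replicate 6, a difference of -1.26 (limma interaction, p = 0.0242, adjusted p = 1). Fosb (-0.84, p = 0.047), Klf10 (-0.36, p = 0.0235) and Nr4a3 (-0.52, p = 0.0225) had differences in the same direction, of which those of Klf10 and Nr4a3 did not pass with all 20 libraries (p = 0.889 and 0.964). Of the 30 effector genes it was called for Spry4 (-0.47, p = 0.0257) and Rasl11a (-0.59, p = 0.0388). In all it was called for 232 genes, 1.79% of those tested, and none passed adjustment (smallest adjusted p = 1, and 0.953 with all 20 libraries). For Egr1 the difference between cohorts was -0.28 (p = 0.365). Genes of smallest p for the difference were Gclm (-0.40), Vangl1 (-0.63) and Fam149a (-0.37), whose fold changes were lower in cohort 2 than in cohort 1, and Zfp784 (0.59), 4930479D17Rik (0.78) and Snhg5 (0.57), which were higher.

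**Figure D4:**
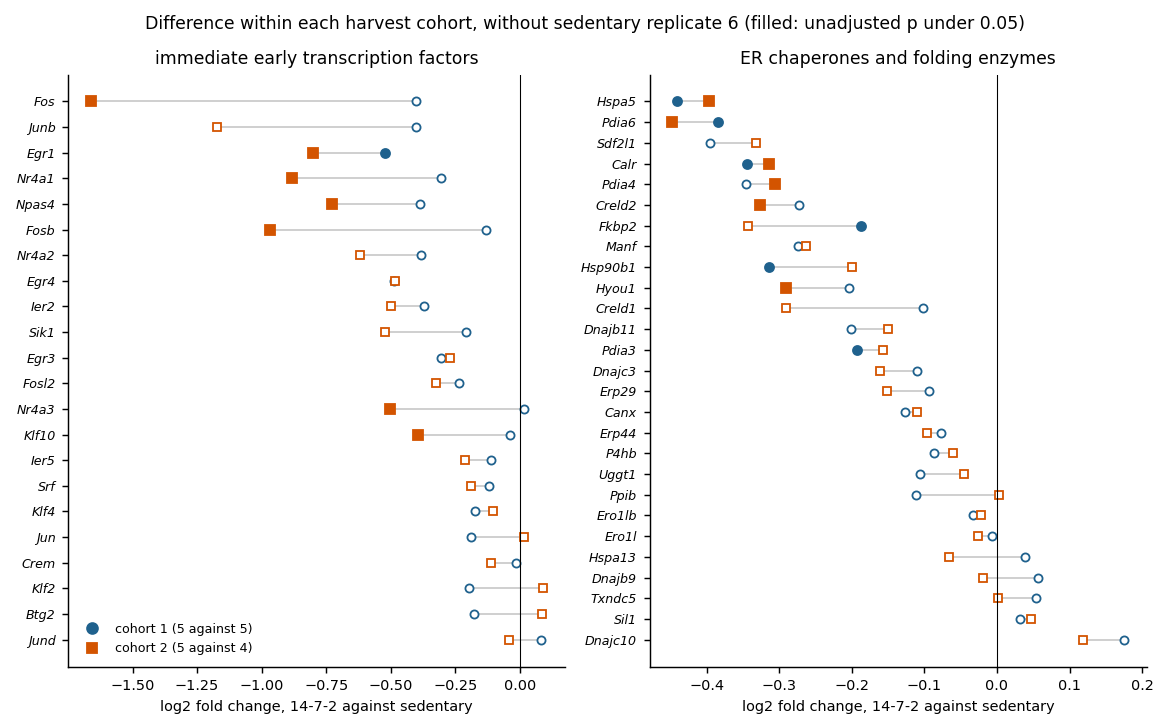
Log2 fold change of 14-7-2 against sedentary (horizontal) within harvest cohort 1 (circles) and cohort 2 without sedentary replicate 6 (squares) for each immediate early transcription factor (left) and ER chaperone (right), filled where called at an unadjusted p under 0.05. Filled symbols number 1 and 7 in the left panel and 6 and 6 in the right panel, and the Fos values of the cohorts lie farthest apart.

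The 14-7-2 group was also compared directly with the running groups that share part of its schedule. The 14-7-0 group had the same schedule of running and rest but no reactivating run. Running was voluntary, and the study states that the distance run in the initial period differed among the exercise groups. The part of running distance in these comparisons was not tested. Against 14-7-0, 264 genes were higher (2.03%) and 436 lower (3.36%, smallest adjusted p = 0.0751, Zfp180). Cholesterol genes were the list with the most calls, 17 of 30 higher and 1 lower with a median log2 fold change of 0.22, and 10 of 17 myelin markers were lower. Of the ER chaperones 4 of 27 were lower (list median -0.06), and of the immediate early transcription factors 3 of 22 (list median -0.04). Acss2 (0.34, p = 0.000142) and Idi1 (0.38, p = 0.000523) were among the leading higher genes, and Zfp180 (-0.27, p = 5.78e-06), Thbs4 (-0.58, p = 0.000178) and Megf10 (-0.25, p = 0.000227) led the lower. Of the genes described above, Egr1 was lower by 0.30 on the log2 scale (p = 0.00252), Calr (-0.21, p = 0.00175) and Pdia6 (-0.14, p = 0.0394) were also lower, and Fos (-0.30, p = 0.0841) and Hspa5 (-0.16, p = 0.123) did not pass.

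Against 0-0-2, which had the 2-day run alone, 149 genes were higher (1.15%) and 167 lower (1.29%). Of the 27 ER chaperones 1 was lower (list median -0.10), and of the 22 immediate early transcription factors 1 was (list median -0.09). Here Pdia6 was lower (-0.19, p = 0.00838) and Rbm3 higher (0.23, p = 0.00462), and Egr1 did not pass (-0.24, p = 0.114). The leading genes were Ogfrl1 (0.26, p = 0.00135) and Hs3st4 (0.42, p = 0.00147), which were higher, and Mgme1 (-0.21, p = 0.00149), Mettl16 (-0.21, p = 0.00204) and Tmem37 (-0.55, p = 0.00231), which were lower. Mir6516, a microRNA gene that is listed at 0 in part of the libraries, had the smallest p (0.000863), and no fold change is given for it. Against 14-0-0, which had 14 days of running without a delay, 181 genes were higher (1.39%) and 592 lower (4.56%). The lower genes included 9 of 27 ER chaperones and 0 of 22 immediate early transcription factors (list medians -0.12 and -0.01). They also included 5 of 19 choroid plexus markers, with 19 of 19 below 0 (list median -1.74). Of the meningeal markers 3 of 16 were lower, with 16 of 16 below 0 (list median -0.41). The part of these cell types in this comparison was not tested. Camta1 (0.20, p = 6.98e-05), Golm1 (0.21, p = 0.000138) and Timm9 (0.27, p = 0.000235) led the higher genes, and Pon2 (-0.32, p = 3.84e-05), Myl12a (-0.41, p = 0.000125) and Lgals1 (-0.54, p = 0.000144) the lower. Acvr1c was at 4.86 ± 0.954 FPKM in 14-0-0 and 4.84 ± 0.758 in 14-7-2 mice, and the log2 difference was 0.00 (standard error 0.11).

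Set beside all 7 groups, the 14-7-2 mean was the lowest for Egr1 (43.7 ± 7.08 FPKM, mean ± SD, n = 10), Pdia6 (45.2 ± 4.66) and Hspa5 (88.1 ± 16.1). The next means in order were those of 14-0-0 for Egr1 (45.2 ± 9.17) and of 14-7-0 for Pdia6 (49.9 ± 4.78) and Hspa5 (97.4 ± 11.4), of which those of Egr1 and Hspa5 lay within 1 SD of the 14-7-2 mean. The highest were those of sedentary mice for Egr1 (71.3 ± 19.9) and of home cage mice, which had no OLM training, for Pdia6 (65.6 ± 11.1) and Hspa5 (132 ± 35.2). For Rbm3 the 14-7-2 mean was the highest (108 ± 13.5), followed by 14-0-0 (96.1 ± 13.6), and home cage was the lowest (76.3 ± 14.3). The Arntl mean was larger in 14-0-0 (15.3 ± 1.9) and 0-0-2 (14.9 ± 2.34) than in 14-7-2 (14.6 ± 1.58) by less than 1 SD, and lowest in 14-14-0 (11.8 ± 0.774). Ciart was lowest in 14-0-0 (3.19 ± 0.957) and highest in sedentary mice (5.19 ± 1.18). Home cage mice, which had neither running nor OLM training, lay near 14-7-2 in both clock genes. Their means were 14.2 ± 2.15 FPKM for Arntl and 3.68 ± 0.718 for Ciart, against 3.8 ± 0.586 for Ciart in 14-7-2. No test was run over the 7 means.

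**Figure D5:**
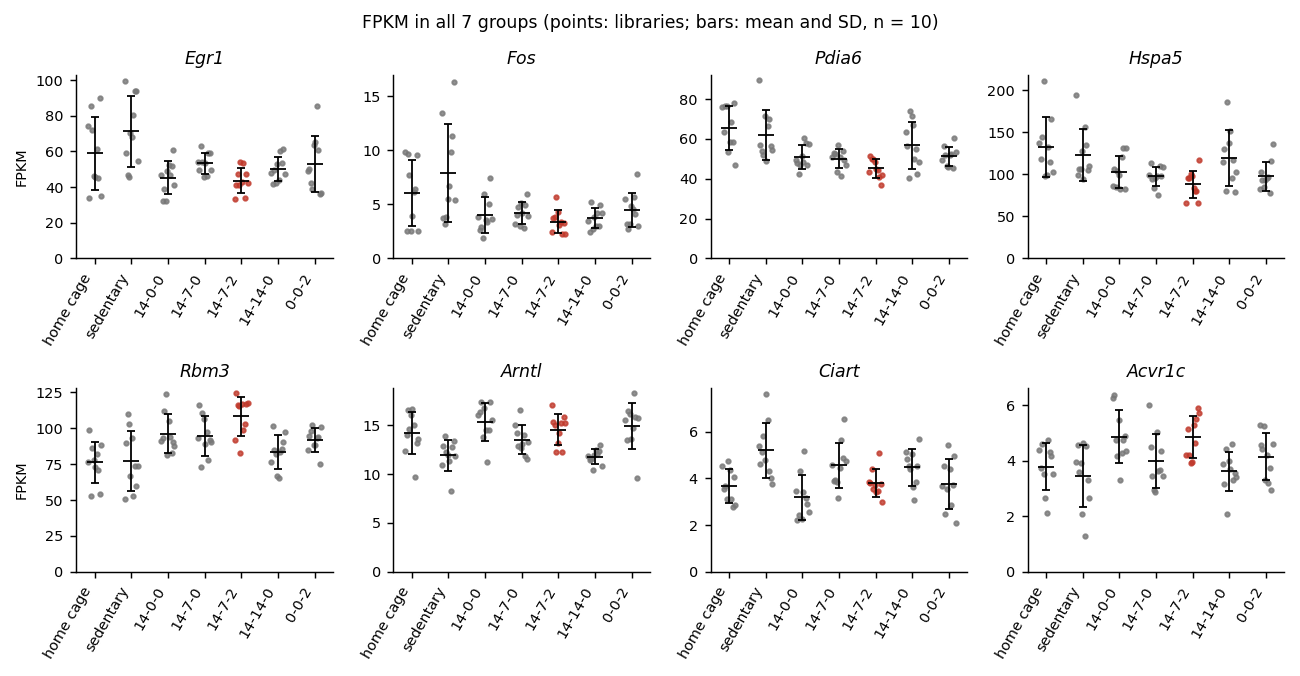
FPKM (vertical axes, linear and starting at 0) of 8 genes in all 7 groups of 10 libraries, with mean and SD as bars and the 14-7-2 libraries in red. The 14-7-2 group has the lowest means of Egr1, Fos, Pdia6 and Hspa5 and the highest mean of Rbm3, and its points overlap with those of the other running groups in every panel.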

How the data were processed

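RNA-seq was measured in dorsal hippocampus in 70 libraries, 7 groups of 10, of which the 14-7-2 and sedentary groups are compared here. Per the labels and the methods of the study, the authors sequenced single reads, aligned them with Bowtie to mm10, and used Cuffnorm to make the deposited FPKM values, a measure per length and per library size that they normalized across all samples (tool versions are not given in the sources used here). Columns of the table were matched to samples by name, and 0 columns of per-sample values were left unused.

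Values were transformed to log2(FPKM + 0.1), and 12994 of 24346 genes, those that averaged 1 FPKM or more across the 70 libraries, were tested (11352 averaged less). Groups were compared with limma 3.58.1 in R 4.3.3 (moderated test with a mean-variance trend, two-sided). As in the study, the limit for a call was an unadjusted p of 0.05, with Benjamini-Hochberg adjustment over all genes tested. Each fit was repeated without sedentary replicate 6, and the fold change is on the log2(FPKM + 0.1) scale, which understates the change of low genes. The test was checked on simulated data with known fold changes. Other comparisons were 14-7-2 against 14-7-0, 0-0-2 and 14-0-0 (each 10 against 10), each harvest cohort alone and the interaction of group and cohort. The replicate label does not say more than the cohort, and each library is taken as 1 animal, so that p-values measure the spread between these libraries.

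The members, the 24 lists of pathways and 16 lists of cell type markers, and the tests were chosen with earlier results of these data known. The 152 named genes are the 12 higher and 12 lower genes of smallest p called in both fits, up to 8 called members of each list (the 2 of smallest p where none was called), genes followed by the study, and the 3 leading genes in each direction of the other comparisons. A few items that this rule selects are not reported here. Junb, Jun, Jund, Nr4a3, Rasl11a, Btg2, Crem, Sik1, Nr1d2, Clock, Cry2, Nr1d1, Dbp, Eif2ak3, Ern1 and the ER chaperones Creld2, Manf, Pdia3, Sdf2l1, Canx, P4hb, Ppib, Erp44, Ero1l and Ero1lb were named after their values were seen. Promoter windows and coordinates are from RefSeq on GRCm38.p6, matched by symbol, and 115 of the 152 named genes have one. The alternatives were other pseudocounts, minimum levels, scalings, covariates and tests, each library left out, and 5 settings chosen after seeing the data. Tables and plots were made with pandas 2.3.3, numpy 2.4.6 and matplotlib 3.10.9 in Python 3.11.15.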

Additional observations from a re-analysis of the deposited data

Results flagged for a closer look

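Within each group, mean log2 levels of the gene lists and the FPKM of named genes were checked for a library far from the other 9 by Dixon's criterion, which marks about 1 in 20 groups by chance. Most of the marked values belonged to sedentary replicate 6. It was lowest in the mean log2 level of neurotrophins and their receptors (3.212), synaptic vesicle genes (5.462), voltage-gated potassium channels (3.343), granule cell markers (1.198), CA1 markers (2.455) and neocortex markers (2.734), and highest in thalamus markers (3.08), striatum markers (5.311), myelin markers (7.319) and oligodendrocyte precursor markers (3.51). Its Bdnf level was 1.178 FPKM.

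In 14-7-2 replicate 9 the mean log2 level was lowest for ribosomal protein genes (7.561), glycolysis genes (6.532), microglia markers (3.857) and pericyte and smooth muscle markers (1.842). Replicate 3 of 14-7-2 was highest in heat shock genes (5.702) and thalamus markers (3.519). Sedentary replicate 4 was highest in microglia markers (4.669), and sedentary replicate 9 was lowest in adult neurogenesis genes (2.728). Of the 152 named genes, 32 had a value set apart in sedentary replicate 6 and 14 in 14-7-2 replicate 9.

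For 14 of the 152 named genes the log2 fold change differed between the harvest cohorts at an unadjusted p under 0.05 of the limma interaction, in one or both fits. Over all 12994 genes the share was 2.42% with all 20 libraries and 1.79% without replicate 6. Gclm, Vangl1, 3110040N11Rik, Fam149a, Zfp784, Snhg5 and 4930479D17Rik were named because their p for this difference was among the smallest. The count of 14 is thus in part set by that choice. Differences are given as cohort 2 minus cohort 1, and none passed adjustment over all genes in either fit. Among activity genes the difference was -1.281 for Fos with all 20 libraries and -1.259 without sedentary replicate 6, -0.924 and -0.8364 for Fosb, and -0.4754 and -0.4689 for Spry4. For Klf10 it was called without replicate 6 alone, at -0.3559. The fold change was also lower in cohort 2 for Gclm (-0.3934 with all 20 libraries and -0.3976 without replicate 6), Vangl1 (-0.7806 and -0.6345), 3110040N11Rik (-0.5372 and -0.4805) and Fam149a (-0.5218 and -0.3717). It was higher in cohort 2 for Zfp784 (0.543 and 0.593), Snhg5 (0.6157 and 0.5685) and 4930479D17Rik (0.8083 and 0.7835). With all 20 libraries alone the difference was called for Usp2 (0.342), Bambi (0.6566) and Lum (1.262).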

How the results depend on the processing

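Of the alternatives to the counts of 269 higher and 302 lower genes, a minimum mean of 5 FPKM gave 178 higher genes (fewer genes were tested), a joint fit of all 7 groups 574 higher and 508 lower, and Cyber-T, the test of the study rewritten here, 158 higher on FPKM and 160 on log2 values. Cohort 1 alone gave 141 and 105, an unadjusted p under 0.01 gave 50 and 47, and leaving out sedentary replicates 0 and 8, a choice made after seeing the data, gave 164 and 158 (116 and 102 when replicate 6 was also left out). The immediate early transcription factors called lower (6) became 2 with a minimum mean of 5 FPKM, 1 in cohort 1, 3 at p under 0.01 and 3 without sedentary replicates 0 and 8. The ER chaperones called lower (11) became 6 in cohort 1, 6 in cohort 2 with or without replicate 6, and 6 at p under 0.01. Leaving out each library in turn gave 174 to 452 higher genes, 182 to 451 lower genes, 5 to 8 immediate early transcription factors and 8 to 12 ER chaperones. Against 0-0-2, the minimum of 5 FPKM gave 98 lower genes. Against 14-0-0 it gave 357 lower genes, and leaving out 14-7-2 replicate 9 gave 325 higher genes. Apart from fewer genes or samples, the causes were not tested.

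In cohort 1, the log2 fold changes of 4930479D17Rik (-0.40), Gclm (0.17) and Vangl1 (0.38) had the opposite sign of those with all 20 libraries, as had that of Zfp784 in cohort 2 without replicate 6 (0.31). None of the 90 named genes called with all 20 libraries changed sign in the fits where it was checked. Single genes were not checked with Cyber-T on FPKM, and the minimum mean of 5 FPKM left some of the 90 untested.

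With the replicate number as a replicate block the counts were 358 higher and 405 lower, and 322 and 314 without replicate 6, where 6 ER chaperones were called lower. Against 0-0-2 the block gave 288 and 419. The numbers are not known to pair the mice. Of 10 same-numbered pairs 2 had deviations that correlated above 0.1 (range -0.398 to 0.281), and in 1 of the 10 a library correlated best with its own number.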
